A study of Populus alba x Populus glandulosa with 18 samples.

Results

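The growing tip of a wild-type poplar stem was compared with its wood. The plants were the hybrid 84K (Populus alba x Populus glandulosa), untreated and 2 months old, and 6 of the 18 libraries of the series entered: 3 of the primary stem (PS) and 3 of the secondary xylem (XY), chosen by genotype and tissue labels alone. PS was the shoot apical meristem pooled with elongating internodes 1 to 3, although its label names the meristem only. XY was the surface tissue of the trunk of internodes 5 to 12 after the bark was taken off. Both groups carry no transgene and share 1 genetic background, which is a single vegetatively propagated hybrid. The other 12 libraries hold wild-type bark and all 3 tissues of plants that overexpress the brassinosteroid synthesis gene DET2 from the 35S promoter, and they are used here only where named. Trees were the stated replicates of each genotype, 3 in number, although no label ties a library to a tree, and the p-values measure the spread between these libraries.

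In the primary stem, cells divide in the meristem, form leaf primordia and stem tissues, and then elongate within thin, extensible walls under an epidermis that secretes a cuticle. In secondary growth, a cylinder of dividing cells, the cambium, gives off phloem outwards and xylem inwards. Xylem vessels and fibres lay down a thick secondary wall of cellulose, xylan and lignin, and vessels and mature fibres then die. A network of NAC and MYB transcription factors switches on the wall enzymes in Arabidopsis and poplar.

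The libraries held 9270918 to 9734848 counts in PS and 7983668 to 10851115 in XY. XY libraries were the more concentrated: the 10 most abundant genes took 2.47% to 2.51% of the counts in PS and 6.18% to 6.46% in XY, and 28400 to 28834 genes had a count in PS against 25949 to 26238 in XY. Markers largely matched the labels. The 63 vessel and fibre markers reached a summed level of 464 to 506 CPM (counts scaled by TMM to a common library size) in PS and 38301 to 40350 CPM in XY. Epidermis markers summed to 214 to 232 CPM in PS and 1.70 to 2.90 CPM in XY, and green-cell markers to 1797 to 2009 CPM in PS and 479 to 510 CPM in XY. Markers of the meristem and leaf primordia summed to 676 to 710 CPM in PS and 294 to 313 CPM in XY, so they did not set the tissues apart as sharply as those of the epidermis. Both gene models that carry the symbol WUS, the stem cell organiser of the Arabidopsis meristem, had no count in any PS library. One of them, Potri.005G114700, stood at 9.31, 10.9 and 7.95 CPM in XY, which was at least 107-fold higher than 3 counts over PS would be. Cambium markers summed to 615 to 627 CPM in PS and 2360 to 2492 CPM in XY, a sum carried by PXY and HB-8. Of the 14 cambium markers tested, the 4 copies of these were lower in PS, all 5 copies of ANT were higher, and WOX4 and LBD4 were not called.

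The 2 tissues differed at much of the genome. Of 42950 gene models, 24134 passed the filter, and 6448 of these (26.7%) were higher in PS and 4668 (19.3%) lower, together 46.1% of the genes tested. A gene was called differentially expressed (DEG) when it changed at least 2-fold and its adjusted p in the edgeR quasi-likelihood test (Benjamini-Hochberg) did not exceed 0.05. The adjusted p alone was met by 19205 genes (79.6%). Of the DEGs, 2419 were at least 8-fold higher in PS and 1241 at least 8-fold lower, and at 32-fold the counts were 1182 and 504. In 10526 genes (43.6%) all 3 PS libraries lay above all 3 XY libraries, and in 9185 (38.1%) they all lay below. The median log2 fold change (PS over XY) of all genes tested was 0.10. The split depends on the scaling: with library totals alone, the median moved to 0.68, and 9681 genes were higher and 2892 lower. Since whole tissues were sampled, fewer cells of a type and less RNA per cell cannot be told apart for any gene below.

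**Figure D1:**
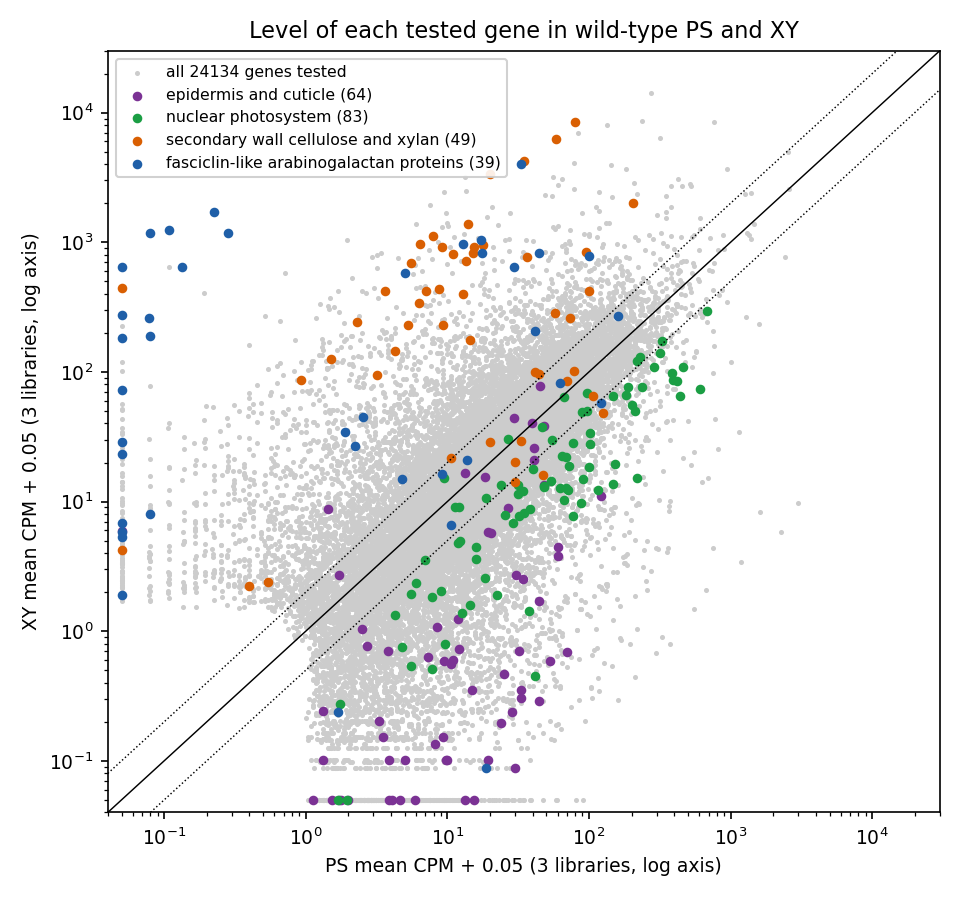
Mean level of each of the 24134 tested genes in PS (x axis) and XY (y axis) in CPM plus 0.05, both on log axes, with 4 gene lists coloured. The solid line marks equal levels and the dotted lines a 2-fold difference. Epidermis and photosystem genes lie mostly on the PS side, and secondary wall and fasciclin-like genes mostly on the XY side, several of the last with no count in PS.

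The wood-forming network was mostly lower in PS. Of 76 secondary wall regulators, 62 were tested, and 7 were higher and 48 lower in PS (11.3% and 77.4%, beside 26.7% and 19.3% of all genes), with a median log2 fold change of -3.66. At its head stand the NAC factors NST1 and VND1, which switch on fibre and vessel walls in Arabidopsis. The NST1 copy Potri.011G153300 (labelled ANAC043) had 18.9, 17.9 and 19.3 CPM in PS, against 290, 303 and 304 CPM in XY (log2 fold change -3.998 ± 0.066, SE, adjusted p = 1.28e-17). All 4 NST1 copies were DEGs lower in PS, with log2 fold changes of -2.47 to -4.71 and no overlap between the tissues. The VND1 gene Potri.007G014400 (ANAC037) had 3.36, 3.79 and 3.95 CPM in PS and 247, 265 and 269 CPM in XY (log2 -6.13). One step below act MYB46 and MYB83, paired switches of the wall programme. MYB46 Potri.009G053900 stood at 1.15, 0.67 and 1.32 CPM in PS and 70.8, 72.5 and 74.0 CPM in XY. Its second copy, Potri.001G258700, had 1 count over the 3 PS libraries and 486 over XY, a level in XY 749-fold that in PS with a 95% counting interval of 134 to 29663. Both MYB83 copies were lower in PS too, at log2 -3.38 (Potri.009G061500) and -5.17 (Potri.001G267300). Further down, MYB103 Potri.003G132000 had 0.53, 0.93 and 0.35 CPM in PS and 232, 255 and 252 CPM in XY. KNAT7 Potri.001G112200 (labelled IXR11), a homeodomain protein that tempers the wall programme in Arabidopsis, had 13.4, 15.2 and 15.9 CPM in PS and 479, 473 and 456 CPM in XY. The regulators that went the other way included Potri.012G103500, the NAC factor ANAC083 (VNI2), a repressor of VND activity in Arabidopsis. It had 5.92, 5.31 and 4.83 CPM in PS and no count in XY, so PS was at least 39.99-fold higher.

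Cellulose synthases of the secondary wall followed. The CESA4 gene Potri.002G257900 (chromosome 2, 24651363 to 24656139, P. trichocarpa v3.1) had 55.6, 54.4 and 66.3 CPM in PS, against 6176, 6233 and 6446 CPM in XY, a log2 fold change of -6.74 ± 0.077 (SE, adjusted p = 2.02e-17). The groups did not overlap, and XY was 107-fold higher. Of the pairs of CESA7 and CESA8 copies, the more abundant ones, Potri.006G181900 and Potri.004G059600, changed by log2 -7.40 and -6.93, and the minor copies, Potri.018G103900 and Potri.011G069600, by -6.21 and -5.45. Set on a per-length scale, the 5 CESA4, CESA7 and CESA8 genes summed to 48.3, 47.8 and 56.1 FPKM in PS and 3780, 3862 and 3970 FPKM in XY. These FPKM are scaled to library totals, not by TMM. The 12 other CESA copies, which make the cellulose of growing walls, summed to 560, 568 and 555 FPKM in PS and 344.7, 353 and 356 FPKM in XY. Divided by the TMM factors, a scaling chosen after the data were seen, the means of these 12 were 459 FPKM in PS and 429 FPKM in XY, 1.07-fold in place of 1.60-fold. Secondary over primary synthases, a ratio that no scaling of a library moves, stood at 0.086, 0.084 and 0.10 in PS and at 10.97, 10.93 and 11.2 in XY. Among the primary genes, CESA6 Potri.005G027600 moved towards PS, with 144, 148 and 137 CPM in PS and 19.4, 20 and 19.5 CPM in XY (log2 2.86). The list of primary wall cellulose genes as a whole did not lean. Of 19 tested, 4 were higher and 3 lower (21.1% and 15.8%, beside 26.7% and 19.3% of all genes). With a minimum of 5 CPM the counts were 3 and 3. Its largest fall was GH9A1 Potri.003G151700, the KORRIGAN endoglucanase that cellulose synthesis of both walls needs in Arabidopsis, at 174, 172 and 204 CPM in PS and 3601, 3403 and 3954 CPM in XY.

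**Figure D2:**
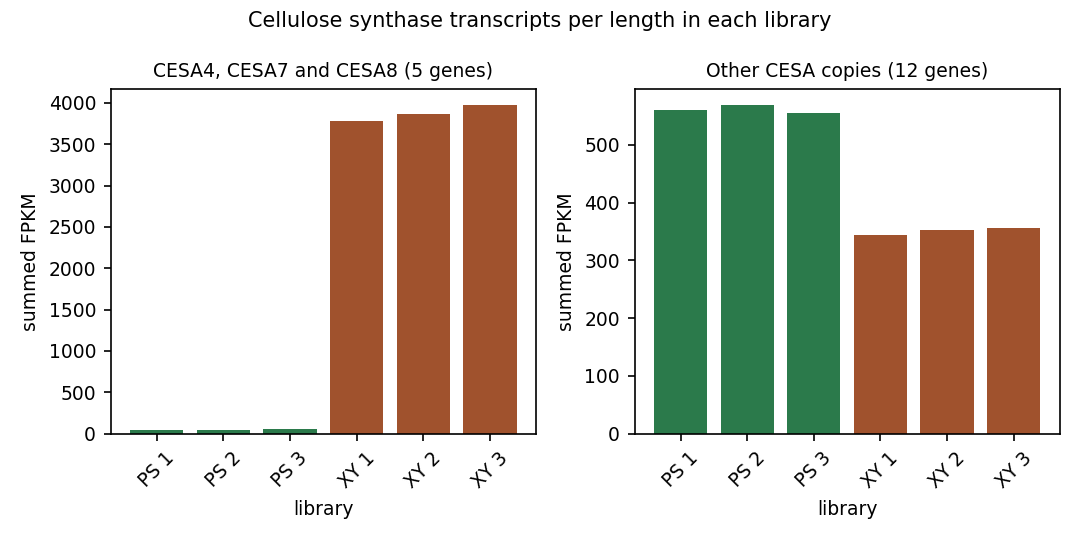
Summed FPKM of cellulose synthases in each library, with the 5 CESA4, CESA7 and CESA8 genes on the left and the 12 other CESA genes on the right. Bars are single libraries, PS first in green and XY in brown, and the 2 panels have different scales. Secondary wall synthases reached at most 56.1 FPKM in PS and at least 3780 FPKM in XY.

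Beyond the synthases, 49 of 56 genes for secondary wall cellulose and xylan were tested, and 3 were higher and 40 lower in PS (81.6% lower, beside 19.3% of all genes), with a median log2 fold change of -5.09. These genes took 0.193% to 0.196% of all counts in PS and 3.26% to 3.42% in XY. COBL4 Potri.004G117200, a membrane-anchored protein of cellulose deposition, had no count in PS and 431, 443 and 447 CPM in XY, at least 5081-fold more. CTL2 Potri.010G141600, a chitinase-like protein that acts in cellulose assembly in Arabidopsis, had the highest CPM of the list, with 77.0, 78.0 and 84.9 CPM in PS and 8182, 8145 and 9140 CPM in XY. The exception with the largest change was TBL35 Potri.016G125600, of a family of wall acetyltransferases, at 49.8, 45.8 and 47.1 CPM in PS and 16.6, 16.7 and 14.6 CPM in XY. A glucomannan synthase gene outside these lists fell in the same way: CSLA09 Potri.008G026400 had 7.25, 8.43 and 6.94 CPM in PS and 1910, 1890 and 1984 CPM in XY (log2 -8.00).

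Lignin synthesis did not move as 1 block. Of 93 members 47 were tested, and 14 were higher and 26 lower in PS, with a median of -2.09. These are 29.8% and 55.3%, beside 26.7% and 19.3% of all genes. The early enzyme PAL1 Potri.006G126800, which also feeds flavonoid synthesis, was abundant in both tissues, with 1367, 1357 and 1424 CPM in PS and 2311, 2296 and 2536 CPM in XY, and did not reach 2-fold (log2 -0.78). Single copies of later enzymes parted far more, but the steps as a whole were not compared. C4H Potri.013G157900 had 81.6, 86.2 and 83.5 CPM in PS and 6873, 6904 and 7135 CPM in XY (log2 -6.38 ± 0.050, SE). For syringyl lignin, the form that marks hardwoods, the hydroxylase F5H Potri.005G117500 (CYP84A1) had 8.40, 9.69 and 10.1 CPM in PS and 2434, 2448 and 2421 CPM in XY (log2 -8.01). CAD4 Potri.009G095800, the reductase that yields the monolignols, changed by log2 -4.78. In contrast, CYP98A3 Potri.016G031100, a hydroxylase copy, stood at 13.8, 15 and 14.4 CPM in PS and had 1 count in XY, a ratio of 323 with a counting interval of 57.7 to 12780. The genes C4H, CAD4 and PAL1 were chosen after their values were seen.

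Laccases, which polymerise monolignols in the wall, leaned more strongly. Of 28 tested, 25 were lower in PS and 3 higher, with none between, and the median was -5.05. LAC4 Potri.010G193100 (labelled LMCO4) had 10.2, 10.03 and 8.87 CPM in PS and 1687, 1707 and 1649 CPM in XY. LAC17 Potri.006G087100 had 1.59, 2.02 and 2.11 CPM in PS and 1010, 1027 and 1063 CPM in XY (log2 -9.07). Of the 9 LAC17 copies tested, 8 were lower in PS. The ninth, Potri.001G341600, was a DEG higher in PS (log2 1.93, adjusted p = 0.00287), at a low level of 3.18, 2.44 and 2.55 CPM in PS and 0.61, 0 and 1.36 CPM in XY. Class III peroxidases, which can do the same chemistry, were higher in PS in 19 of 34 and lower in 7 (55.9% and 20.6%). Over all genes the shares were 26.7% and 19.3%, so only the higher share departed from them. PRXR1 Potri.004G015300 had 2415, 2417 and 2493 CPM in PS and 741, 751 and 810 CPM in XY, whereas Potri.006G129900, an unnamed peroxidase, had 0.27, 0.34 and 0.79 CPM in PS and 275, 267 and 274 CPM in XY.

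Fasciclin-like arabinogalactan proteins (FLAs), cell-surface glycoproteins that in their FLA11 and FLA12 forms are tied to secondary walls, gave some of the widest gaps. Of 61 members 39 were tested, and 3 were higher and 31 lower in PS. These are 7.69% and 79.5%, beside 26.7% and 19.3% of all genes. The median log2 fold change was -6.87, or -5.95 with genes that lack counts in a tissue set at their bound. FLA12 Potri.004G210600 had no count in PS and 651, 623 and 672 CPM in XY, at least 7493-fold more. FLA12 Potri.009G012200 had 1 count over PS against 26738 over XY, a ratio of 41234 (counting interval 7400 to 1628723). The most abundant member, FLA11 Potri.015G129400, was not absent from PS, with 31.6, 31.5 and 35.4 CPM there and 3876, 4080 and 4122 CPM in XY. Many of these genes are neighbours. On chromosome 19, between 14872134 and 15137005, lie 10 FLA11 and FLA12 gene models, and all 8 that were tested were lower in PS, 9 of the 10 without a count there. Another 4, between 15545458 and 15560942 on chromosome 13, were all lower in PS. Neighbouring copies can share reads, so the values of single copies are uncertain. The largest move towards PS was FLA1 Potri.011G093500, at 19.4, 19.8 and 17.1 CPM in PS and with 1 count in XY, a ratio of 421 (75.4 to 16673).

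Microtubules guide cellulose deposition, and their genes split by member. Of those tested, 34 were higher, 39 lower (33% and 37.9%, beside 26.7% and 19.3% of all genes) and 30 not called. This split turned to 46 and 28 with library totals alone. The most abundant of them was TUA2 Potri.002G111900, an alpha-tubulin, with 254, 265 and 309 CPM in PS and 13693, 13963 and 14949 CPM in XY (log2 -5.68). MAP70-5, a protein that shapes secondary wall bands in Arabidopsis, was lower in PS in both copies, at log2 -9.74 for Potri.016G006900 (0.62, 0.51 and 0.88 CPM in PS, 587, 597 and 557 CPM in XY) and -7.93 for Potri.006G018000, which was chosen after its values were seen. A TPX2-family gene, Potri.T059900, had 2 counts over PS and 14595 over XY. The kinesin ATK1 Potri.011G031200, which acts in the spindle in Arabidopsis, had 16.9, 14.8 and 12.5 CPM in PS and 1.07, 1.14 and 0.11 CPM in XY.

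Supply and cell death of the xylem were mixed. Sucrose synthase SUS4 Potri.006G136700, which makes the UDP-glucose for cellulose, had 742, 738 and 795 CPM in PS and 8413, 8618 and 8518 CPM in XY (log2 -3.49), and a UDP-glucose dehydrogenase, Potri.004G118600, 94.9, 91.4 and 90.9 CPM in PS and 1157, 1155 and 1149 CPM in XY. Yet the sucrose list held 13 genes higher and 8 lower of 46, close to the background, and SUS6 Potri.015G029100 was the reverse, with 34.9, 34.6 and 38.3 CPM in PS and 3 counts in XY. Among genes of xylem cell death, 4 of 35 were higher and 15 lower (11.4% and 42.9%, beside 26.7% and 19.3% of all genes). The protease XCP2 was lower in PS in both copies (log2 -4.09 for Potri.005G256000 and -4.62 for Potri.002G005700). XCP1 Potri.004G207600, which acts beside it in Arabidopsis vessels, had 31.4, 30.3 and 39.0 CPM in PS and 35.7, 28.2 and 29.3 CPM in XY, and these overlap. Aquaporins split, with 16 higher and 13 lower of 39 (41% and 33.3%), both above the shares over all genes. PIP1;4 Potri.003G128600 had 494, 497 and 566 CPM in PS and 2836, 2729 and 2886 CPM in XY.

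**Figure D3:**
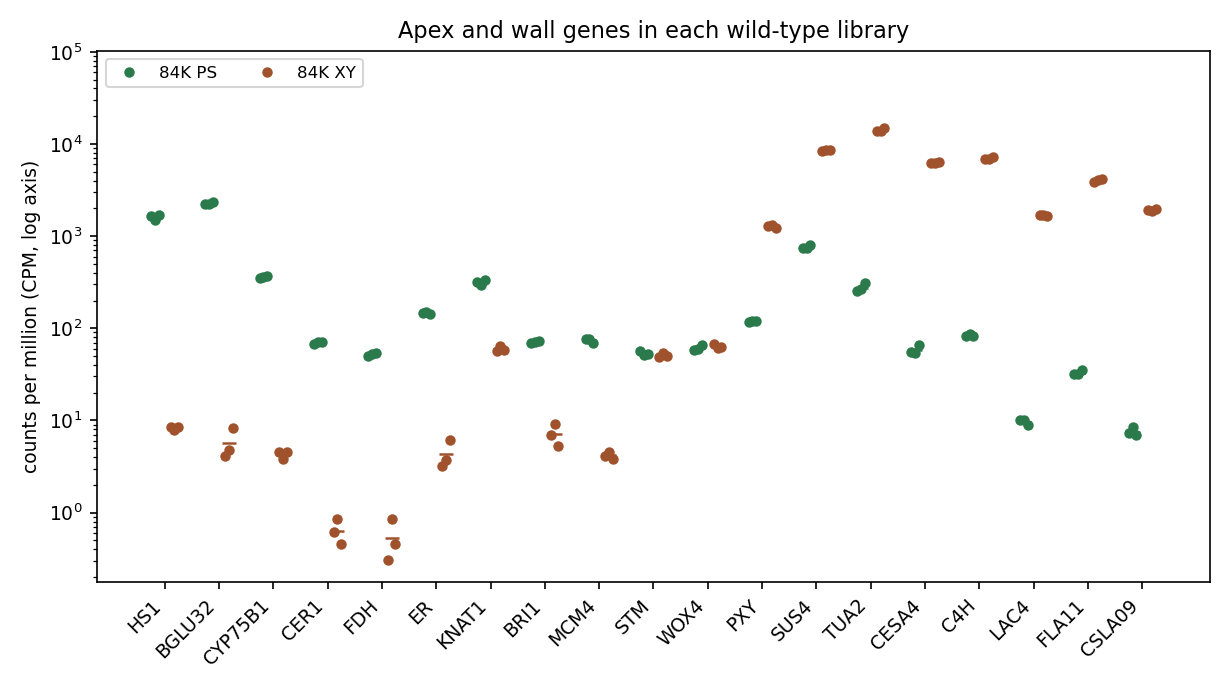
Level in CPM (log axis) of 19 genes in each of the 3 PS (green, left) and 3 XY libraries (brown, right), with short lines at the means. From left to right, the genes go from those higher in PS, over STM and WOX4 at similar levels, to those higher in XY. The replicates of a tissue lie close together beside the gaps between tissues.

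Genes of the meristem did not all mark PS. Of 38 meristem homeobox and related genes tested, 12 were higher and 5 lower in PS (31.6% and 13.2%), a share of higher genes near the background of 26.7%. KNAT1 Potri.002G113300 (labelled BP), a homeodomain factor of stem growth, had 322, 298 and 334 CPM in PS and 56.8, 65.0 and 57.9 CPM in XY (log2 2.41 ± 0.069, SE, adjusted p = 1.37e-14). STM, the factor that keeps meristem cells undifferentiated, was at like levels. Its copy Potri.011G011100 had 57.1, 50.7 and 53.2 CPM in PS and 48.5, 54.2 and 49.95 CPM in XY, which overlap, and Potri.004G004700 was slightly lower in PS, at 36.9, 34.6 and 40.5 CPM in PS against 47.2, 45.7 and 51.4 CPM in XY (log2 -0.37). A receptor of meristem size, CLV1 Potri.005G241500, had 21.7, 25.8 and 27.1 CPM in PS and 1.37, 2.27 and 1.48 CPM in XY. The receptor kinase BAM3 Potri.003G157300 had 95.5, 95.4 and 91.0 CPM in PS and 0.92, 0.57 and 3.41 CPM in XY. BAM3 is not particular to PS, since its mean was 61.2 FPKM in wild-type bark and 37.2 FPKM in PS. ERECTA Potri.006G220100 (ER), a receptor of stem elongation chosen after its values were seen, had 148, 152 and 142 CPM in PS and 3.21, 3.69 and 6.13 CPM in XY.

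Organ polarity and boundary genes, which pattern leaf primordia, leaned to PS, with 32 of 54 higher and 2 lower and a median of 1.78. These are 59.3% and 3.7%, beside 26.7% and 19.3% of all genes. KANADI (KAN), a factor of the lower leaf face, was counted almost only in PS. Potri.017G137600 had 7.34, 8.51 and 10.02 CPM in PS and no count in XY, at least 64.4-fold higher. Potri.012G042100 had 35.8, 35.5 and 38.04 CPM in PS and 0.92, 0.28 and 0.45 CPM in XY. YAB5 Potri.006G067800, of the same face, had 6.01, 6.91 and 7.56 CPM in PS and none in XY. The second KAN copy and YAB5 were chosen after their values were seen. By contrast PHB Potri.001G372300 (ATHB-14), a factor of the upper face and of xylem patterning, had 156, 158 and 153 CPM in PS and 219, 231 and 246 CPM in XY, under 2-fold. GIF3 Potri.012G023100, a growth co-activator, was lower in PS (log2 -2.87).

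Division genes were mostly higher in PS. Of 85 cell cycle genes, 57 were higher and 3 lower (67.1% and 3.53%, beside 26.7% and 19.3% of all genes), with a median of 1.90. Of 60 DNA replication genes, 45 were higher and 3 lower (75% and 5%), with a median of 1.97. CDKB2;1 Potri.005G257500, a kinase of the G2 to M transition, had 67.9, 65.2 and 66.2 CPM in PS and 8.55, 5.39 and 7.72 CPM in XY. MCM4 Potri.009G121500, of the replication helicase, had 76.6, 77.5 and 70.0 CPM in PS and 4.12, 4.54 and 3.86 CPM in XY. These were chosen after their values were seen. RNR1 Potri.005G087300, which makes deoxyribonucleotides, changed by log2 4.51, while one RNR2 copy, Potri.008G201500, was lower in PS (log2 -1.20). The core cell cycle kinase CDC2 Potri.004G133500 stood at 120, 115 and 117 CPM in PS and 115, 118 and 115 CPM in XY, with full overlap. An inhibitor of these kinases, ICK6 Potri.017G054000, was lower in PS, at 8.31, 10.9 and 9.49 CPM in PS against 73.3, 73.1 and 60.5 CPM in XY. Histones were higher in 28 of 56 and lower in 4 (50% and 7.14%, median 1.06). Cytosolic ribosomal protein genes shifted by less than the 2-fold threshold in most cases: 51 of 207 were higher, near the background, and 5 lower, with a median of 0.65. They took 2.91% to 2.97% of the counts in PS and 1.18% to 1.26% in XY, shares of library totals without TMM. Scaled by TMM, they summed to 23882 to 24411 CPM in PS and 14468 to 15385 CPM in XY.

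Epidermis and cuticle genes had the largest shift towards PS of all lists, with 53 of 64 higher and 2 lower. These are 82.8% and 3.12%, beside 26.7% and 19.3% of all genes. The median was 4.38, or 4.03 with genes that lack counts at their bound. CER1 Potri.014G180300, of wax alkane synthesis, had 68.2, 71.6 and 70.5 CPM in PS and 0.61, 0.85 and 0.45 CPM in XY (log2 6.78 ± 0.16, SE). FDH Potri.006G218000 (KCS10), a very-long-chain fatty acid elongase of the epidermis, had 50.6, 52.8 and 54.4 CPM in PS and 0.31, 0.85 and 0.45 CPM in XY. Both were chosen after their values were seen. DCR Potri.015G147300, an acyltransferase of cutin synthesis, was the most abundant, averaging 120.6 ± 4.49 CPM in PS and 11.03 ± 1.395 CPM in XY (SD, n = 3 each), with no overlap. FAR2 Potri.016G062200, an acyl reductase, was the exception with the largest change, with no count in PS and 6.11, 7.52 and 4.09 CPM in XY. The defining epidermis markers were all at or near 0 in XY, as given above.

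Green-tissue genes mostly favoured PS. Of 83 nuclear photosystem genes, 68 were higher (81.9%), none was lower and 15 were not called, with a median of 1.91. The shares over all genes were 26.7% higher and 19.3% lower. An antenna gene, LHB1B1 Potri.005G239300, had 430, 417 and 470 CPM in PS and 65.6, 59.9 and 69.7 CPM in XY. RBCS1A Potri.017G114600, the small subunit of Rubisco, had 92.5, 95.5 and 102 CPM in PS and 5.65, 4.97 and 6.24 CPM in XY. Both were chosen after their values were seen. In carbon fixation 19 of 28 were higher and 3 lower (67.9% and 10.7%). Among the last, the carbonic anhydrase copy Potri.001G348900 (SABP3) had no count in PS and 26.4, 19.9 and 31.9 CPM in XY. Flavonoid synthesis genes were higher in 35 of 45 and lower in 1 (77.8% and 2.22%, median 3.53). CYP75B1 Potri.018G051300, the hydroxylase that makes catechol-type flavonoids, had 352, 357 and 369 CPM in PS and 4.58, 3.83 and 4.54 CPM in XY. A chalcone synthase copy (CHS), Potri.012G138800, the entry step, had 18.3, 20.8 and 19.5 CPM in PS and no count in XY, at least 146-fold higher. Flavonoid genes took 0.258% to 0.259% of the counts in PS and 0.0182% to 0.02001% in XY.

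Wall-loosening genes favoured PS in part. Of 21 expansins, which loosen growing walls, 13 were higher and 4 lower (61.9% and 19%, median 2.92). EXP1 Potri.004G123200 had 79.0, 78.7 and 84.96 CPM in PS and no count in XY, at least 604-fold higher. The most abundant expansin went the other way: EXPA4 Potri.001G240900 had 154, 156 and 156 CPM in PS and 419, 426 and 434 CPM in XY (log2 -1.46), a call that was lost with library totals alone and on FPKM. Xyloglucan endotransglucosylases, which cut and rejoin xyloglucan, split evenly at 9 higher and 9 lower of 22. That is 40.9% each way, beside 26.7% and 19.3% of all genes. XTH30 Potri.003G097300 had 1.24, 2.36 and 1.67 CPM in PS and 122, 124 and 113.9 CPM in XY, against XTH8 Potri.011G025800 with 10.5, 11.04 and 10.6 CPM in PS and none in XY. Pectin modifying genes were higher in 44 and lower in 28 (41.9% and 26.7%), with 33 not called.

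**Figure D4:**
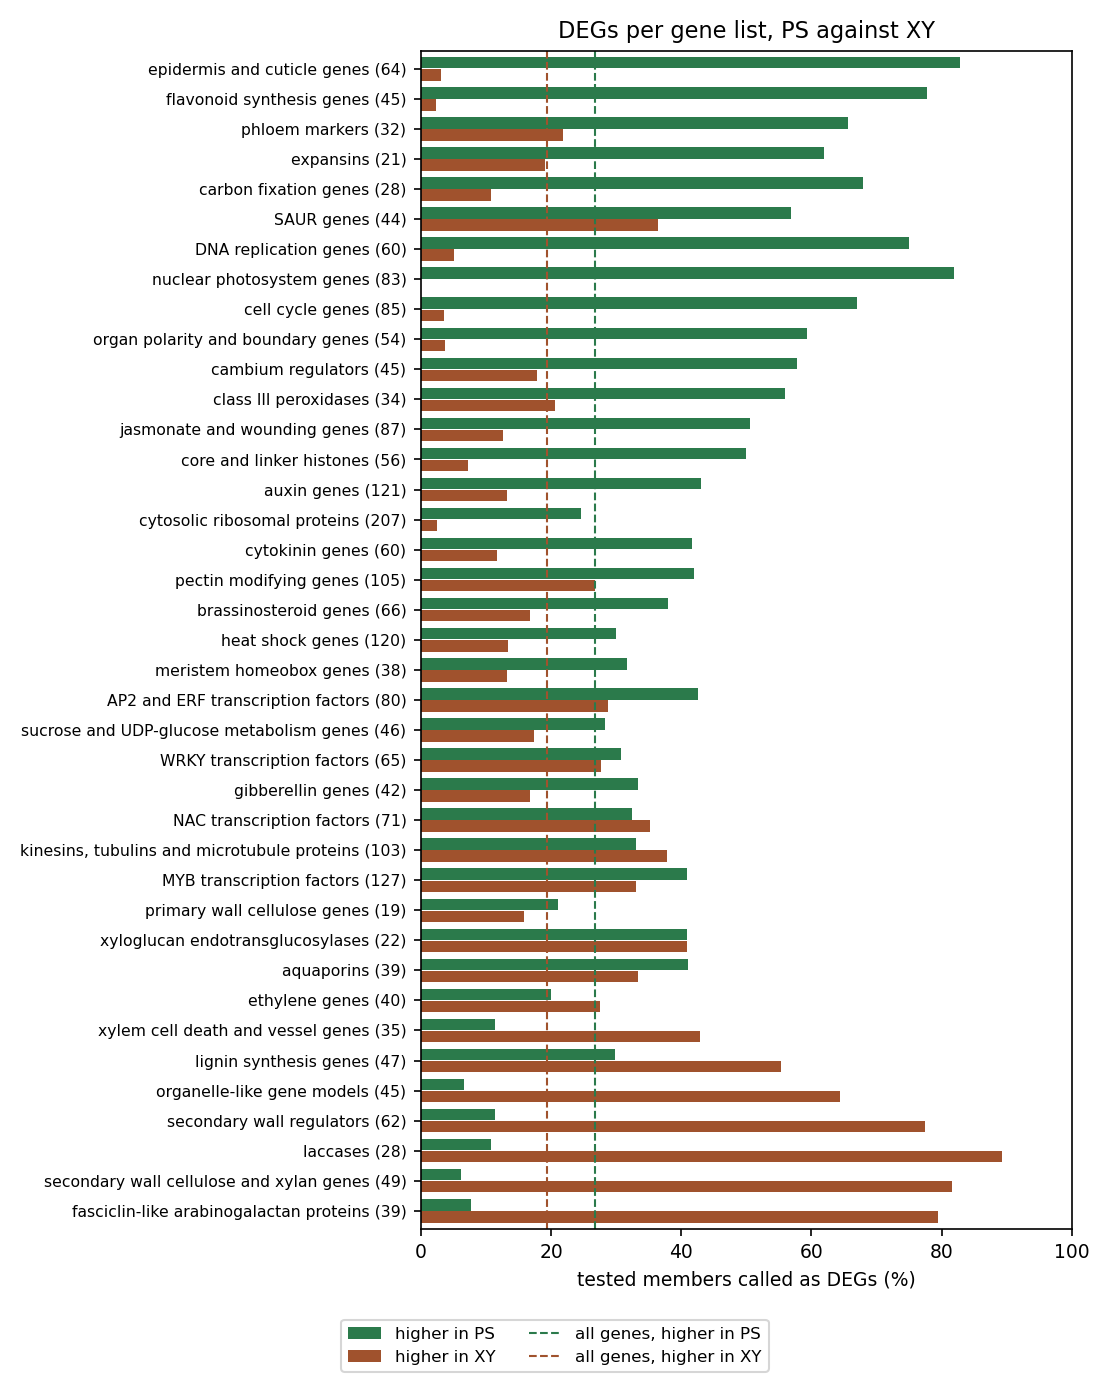
Share of tested members (number in brackets) of each gene list that were DEGs, in percent, with genes higher in PS in green above those higher in XY in brown. Lists are ordered by median log2 fold change. The dashed lines give the shares over all genes tested, 26.7% and 19.3%. Lists at the top and bottom pass one line by far. Several in the middle pass both lines, such as xyloglucan endotransglucosylases at 40.9% each way and aquaporins at 41% and 33.3%.

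Cambium and phloem genes lay in both tissues. The peptide receptor PXY, which acts in the cambium, was lower in PS: Potri.001G126100 had 117, 119 and 120 CPM in PS and 1303, 1325 and 1230 CPM in XY, and Potri.003G107600 had 166, 170 and 160 CPM in PS and 655, 670 and 580 CPM in XY. WOX4, the factor that PXY acts through, was not a DEG in either copy. Potri.014G025300 had 57.7, 59.8 and 65.98 CPM in PS and 67.9, 61.7 and 63.2 CPM in XY, and Potri.002G124100 had 23.2, 22.7 and 27.3 CPM in PS and 29.2, 27.2 and 26.3 CPM in XY. Of the whole list of cambium regulators, 26 of 45 were higher in PS and 8 lower (57.8% and 17.8%). Phloem markers were higher in 21 and lower in 7 of 32 (65.6% and 21.9%). Over all genes the shares were 26.7% and 19.3%. APL Potri.010G174100, the factor of phloem identity, chosen after its values were seen, had 29.7, 32.5 and 31.98 CPM in PS and 2 counts in XY. However, SUC2 Potri.019G085800, a copy of the sucrose loader, had 15.6, 16.5 and 16.8 CPM in PS and 1080, 1105 and 1055 CPM in XY, and alone made up nearly the whole summed phloem marker level of XY (1058 to 1107 CPM, beside 64.1 to 69.4 CPM in PS).

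Hormone pathways held genes of either tissue. In auxin, 52 of 121 were higher and 16 lower (43% and 13.2%, beside 26.7% and 19.3% of all genes, median 0.71). The influx carrier AUX1 Potri.016G113600 had 81.0, 89.1 and 89.3 CPM in PS and 590, 644 and 692 CPM in XY, whereas the efflux carrier PIN2 Potri.014G146800, chosen after its values were seen, had 54, 52.3 and 55 CPM in PS and 2 counts in XY. DFL2 Potri.013G144300, of the GH3 family that conjugates auxin, had 35.4, 33.6 and 34.2 CPM in PS and none in XY. The Aux/IAA repressor IAA29 Potri.006G255200 had 15.8, 13.2 and 14.2 CPM in PS and 255, 254 and 249 CPM in XY. SAUR genes, small auxin-induced growth genes, were higher in 25 and lower in 16 of 44 (56.8% and 36.4%). In the brassinosteroid list, 25 of 66 were higher and 11 lower (37.9% and 16.7%). Both copies of the receptor BRI1, chosen after their values were seen, were higher in PS: Potri.005G086500 had 69.3, 71.3 and 73.5 CPM in PS and 7.02, 9.22 and 5.34 CPM in XY (log2 3.33), and Potri.007G078100 changed by log2 3.31. Its synthesis gene CYP90D1 Potri.001G200100 was lower in PS, at 0.35, 0.25 and 0.09 CPM in PS against 6.56, 8.37 and 6.24 CPM in XY. DET2 Potri.016G110600, the gene overexpressed elsewhere in the series, overlapped between wild-type tissues, at 4.15, 5.06 and 7.03 CPM in PS and 7.78, 8.51 and 5.22 CPM in XY. In gibberellin, 14 of 42 were higher and 7 lower, near the background, although Potri.001G254100, a gibberellin-regulated gene with 196, 194 and 243 CPM in PS and 0.61, 0.57 and 0 CPM in XY, was among the widest gaps of all genes. Cytokinin genes were higher in 25 and lower in 7 of 60 (41.7% and 11.7%), and jasmonate and wounding genes in 44 and 11 of 87 (50.6% and 12.6%). Ethylene genes were higher in 8 and lower in 11 of 40 (20% and 27.5%), a split that turned to 11 and 4 with library totals alone. There ACO4 Potri.002G224100, the enzyme that releases ethylene, had 54.9, 57.5 and 62.4 CPM in PS and 0.92, 0.28 and 1.25 CPM in XY, and CTR1 Potri.010G234700, a brake on the signal, had 4.95, 6.41 and 5.89 CPM in PS and 93.6, 86.7 and 106 CPM in XY.

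The other transcription factor families split between the tissues. Of 127 MYB genes, 52 were higher and 42 lower in PS (40.9% and 33.1%, beside 26.7% and 19.3% of all genes). With a minimum of 5 CPM in 3 libraries, however, 18 were higher and 40 lower. MYB60 Potri.013G067500, a factor of guard cells in Arabidopsis, had 28.9, 27.6 and 31.9 CPM in PS and no count in XY. NAC genes counted 23 higher and 25 lower of 71 (32.4% and 35.2%), which became 29 and 21 with library totals alone. WRKY genes counted 20 and 18 of 65 (30.8% and 27.7%), or 7 and 13 with the same minimum of 5 CPM. WRKY2 Potri.001G472800 had 39.4, 38.8 and 44.99 CPM in PS and 463, 491 and 553 CPM in XY. The heat shock list leaned little, with 36 of 120 higher and 16 lower (30% and 13.3%). Yet its most abundant gene, HSP17.6II Potri.006G223900, had 766, 789 and 772 CPM in PS and 43.8, 41.7 and 43.8 CPM in XY.

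Some genes were counted almost only in 1 wild-type tissue. With at least 100 counts in each library of a tissue and at most 3 over the other, there were 141 genes for PS and 39 for XY. Of these, 71 and 23 had no count in the other tissue. In the overexpressing plants, 87 of the 141 and 30 of the 39 also had at most 3 counts in the other tissue. For those without a count, the lower bound of the fold was 69.4 to 677 in PS genes (median 105.3) and 192 to 7493 in XY genes (median 503). The XY genes included 11 FLA genes, and the PS genes were spread, with 7 of epidermis and cuticle, 3 expansins and 3 of auxin. In wild-type bark, 20 of the PS genes and 7 of the XY genes reached 10 CPM, and 74 and 17 stayed under 1 CPM.

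Several of the widest gaps towards PS at a level of at least 100 CPM lay in genes of no list. BGLU32 Potri.005G059500, a beta-glucosidase, had 2235, 2255 and 2342 CPM in PS and 4.12, 4.82 and 8.29 CPM in XY (log2 8.58). A DUF642 protein, Potri.006G250100, had 371, 364 and 379 CPM in PS and 1.07, 0.85 and 0.34 CPM in XY, and annexin ANNAT4 Potri.001G024900 332, 312 and 332 CPM in PS and 1.07, 0.57 and 0.91 CPM in XY. Phosphorylase superfamily genes, a family known in poplar for vegetative storage proteins, stood beside them, among them Potri.013G080400 with 536, 525 and 593 CPM in PS and 1.68, 1.70 and 0.91 CPM in XY. They sit in neighbourhoods of chromosome 13: all 6 between 7005736 and 7500286 and all 3 between 11267696 and 11349338 were higher in PS.

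Copies that share an Arabidopsis symbol did not always go together. Of 3001 symbols with at least 2 tested gene models, 261 (8.7%) held both a DEG higher and a DEG lower in PS, 373 had all models higher and 216 all lower. The symbol HS1, a heat stable protein with an antimicrobial role in Arabidopsis, was 1 of the 5 with the widest gaps. Its model Potri.010G150500 had 1647, 1495 and 1684 CPM in PS and 8.39, 7.94 and 8.40 CPM in XY, and Potri.010G037500 on the same chromosome had 17.6, 18.9 and 19.8 CPM in PS and 144, 152 and 143 CPM in XY. All 5 tested copies between 15918247 and 15959234 were higher in PS, and both between 6387211 and 6394620 lower. CSLA09, named above for XY, had another copy, Potri.006G116900, with 99.9, 102.7 and 112 CPM in PS and 10.8, 13.8 and 9.195 CPM in XY. For CYP78A6, a P450 of organ growth, Potri.002G175200 changed by log2 6.43 and Potri.003G146800 by -4.32. For UBC10, a ubiquitin-conjugating enzyme, Potri.004G175000 was at least 184-fold higher in PS, with no count in XY. Potri.015G023300 changed by log2 -1.40, a call lost in 4 of the 18 alternatives. For ARK3, a receptor kinase, Potri.019G120300 changed by log2 6.94 and Potri.011G037100 by -4.86. A shared symbol names the closest Arabidopsis gene and does not show that models are recent copies.

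**Figure D5:**
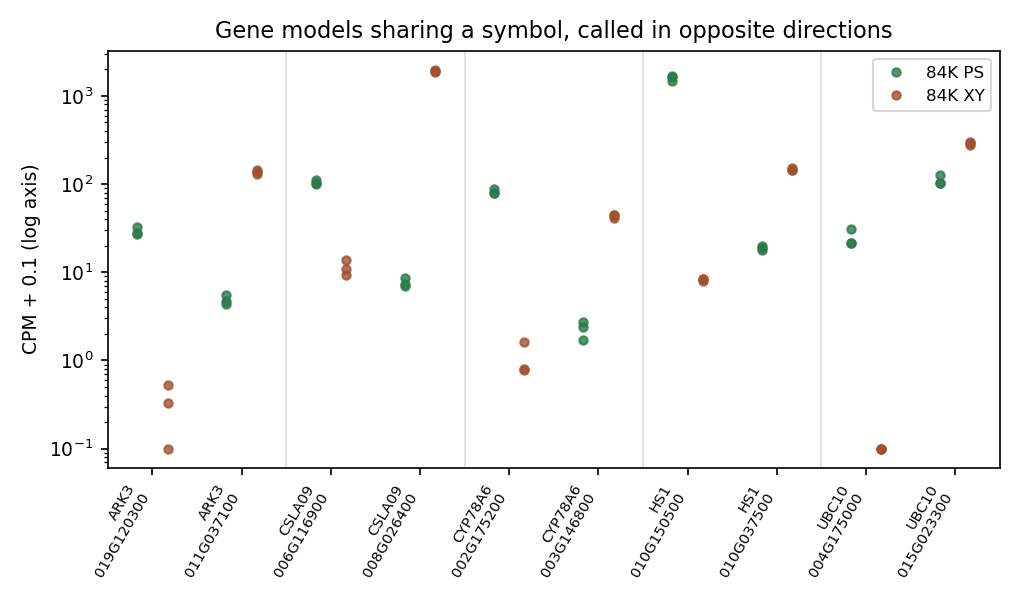
Level in CPM plus 0.1 (log axis) of paired gene models that share a symbol and were DEGs in opposite directions, for the 5 symbols with the widest gap. Each point is 1 library, with PS in green to the left of XY in brown. In each pair, the first model is higher in PS and the second higher in XY.

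The contrast was repeated in the DET2-overexpressing plants, whose libraries are separate from these. There 6956 of 24132 genes (28.8%) were higher in PS and 4953 (20.5%) lower. Of the genes higher in wild-type PS, 5748 of 6448 were also higher there (89.1%, and 82.6% of the 6956), and of the lower ones 4100 of 4668 (87.8%, and 82.8% of the 4953). Opposite calls were made for 3 and 5 genes. A test of the difference between genotypes passed for 2499 of 24913 genes (10.03%).

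Gene models matched as organelle-like by symbol or description, 45 of which were tested, were mostly lower in PS, with 3 higher and 29 lower. These are 6.67% and 64.4%, beside 26.7% and 19.3% of all genes. They took 0.0258%, 0.0258% and 0.0490% of the counts in PS and 0.0998%, 0.1002% and 0.105% in XY. The list may hold nuclear genes. Its most abundant member, Potri.006G248700, is described as subunit C of an F0/V0 ATPase complex and lies on chromosome 6. It had 59.7, 54.3 and 63.5 CPM in PS and 127, 131 and 139 CPM in XY. The shares and the lean thus cannot be read as those of organelle transcripts. In the overexpressing plants only 25 genes of this list were tested, and 10 were higher and 3 lower, beside 28.8% and 20.5% of all genes there.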

How the data were processed

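RNA was sequenced from the PS and XY of 84K poplar. The authors aligned reads with HISAT2 2.0.4 to the P. trichocarpa genome v3.1 (444) and counted fragments per gene with StringTie 1.3.0. The deposited table holds these raw counts and, made by the authors with a script, FPKM. In 10624 well-counted genes the PS over XY ratio of FPKM equalled that of counts over library totals, so FPKM carry no TMM scaling. Reads of a hybrid were thus counted on the genome of another species, with no stated use of strand, so antisense partners and near-identical copies cannot be told apart. No sequence was used here, since no genome was at hand.

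Counts of the 6 libraries were filtered (edgeR 4.0.16 filterByExpr, minimum count 10), scaled by TMM and tested with edgeR's robust quasi-likelihood test with Benjamini-Hochberg adjustment over all 24134 genes (R 4.3.3). SE is the log2 fold change over the square root of F. Genes with 0 counts over a tissue were given a lower bound against 3 counts over its libraries, and those with 1 to 3 counts a ratio with its exact 95% binomial interval, which covers counting error only. Depth was 7983668 to 10851115 counts. Replicate libraries differed by more than counting noise, so none was a mere recount of another. Libraries from the same tree and from separate trees cannot be told apart in this way. Recovery was tested on simulated counts.

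Members were the libraries named by the labels. The members, the 40 gene lists (10 of them added after the files were seen) and the rule for named genes were chosen with earlier results of these data known. Lists were matched by symbol and description, leaving out unrelated genes that share a symbol. The named genes were the 8 widest gaps each way at 100 CPM or more in the higher tissue, the most abundant and the most changed members of each list at 5 CPM or more, 18 fixed symbols, and the 5 symbols whose copies at 20 CPM or more moved furthest apart. Others are marked as chosen after their values were seen. Some genes that the rule picked are not reported here. Alternatives were other scaling (library totals, edgeR's relative log expression factors), other filters, DESeq2 1.42.0 and a test against 2-fold. Further ones were limma 3.58.1 on log2(FPKM + 1) or log2(FPKM + 0.1), all 18 libraries in 1 fit, a replicate block, no organelle-like genes and leaving out each library.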

Additional observations from a re-analysis of the deposited data

Results flagged for a closer look

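For 23 genes named above, the PS against XY contrast differed between wild type and the DET2-overexpressing plants by a test of the difference itself (edgeR interaction term, adjusted p at most 0.05 over 24913 genes, 10.03% of which passed). The difference is given as the wild-type minus the overexpressor log2 fold change, with PS over XY in each. All of these genes kept their direction in both genotypes, so the differences are of size. Among genes higher in PS, the wild-type contrast was smaller for CYP75B1 Potri.018G051300 (difference -3.36; 359 CPM in PS and 4.32 CPM in XY in wild type, against 444.4 and 0.52 CPM in overexpressors). It was also smaller for CER1 (-3.75), CLV1 Potri.005G241500 (-1.79), HS1 Potri.010G150500 (-1.34, adjusted p = 3.10e-07), BGLU32 (-0.93), RBCS1A (-0.74) and CESA6 (-0.66). The wild-type contrast was larger for CSLA09 Potri.006G116900 (0.65) and HSP17.6II (0.40). EXP1 Potri.004G123200 had a difference of 5.30 and, among genes lower in PS, CYP90D1 Potri.001G200100 one of 5.63. Both had no count in 1 tissue of 1 genotype, so these 2 sizes depend on the count added before taking logs. CER1 and CLV1 were also near 0 in overexpressor XY, at 0.045 and 0.32 CPM. The sizes of their differences are thus uncertain too (SE 0.72 and 0.44).

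Among genes lower in PS, a positive difference means that the gap was narrower in wild type. This held for CTR1 Potri.010G234700 (1.02, adjusted p = 7.71e-05), CESA7 Potri.018G103900 (0.68), SUC2 (0.47), XCP2 Potri.002G005700 (0.33), GH9A1 (0.30), SUS4 (0.27) and the UDP-glucose dehydrogenase Potri.004G118600 (0.27). The gap was wider in wild type for GIF3 (-0.95), MYB46 Potri.009G053900 (-0.92), IAA29 (-0.34) and PAL1 (-0.29). WOX4 Potri.002G124100 was not a DEG in either genotype, with log2 fold changes of -0.17 in wild type and -0.81 in overexpressors (0.61).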

How the results depend on the processing

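Of 188 genes picked by the rule or after their values were seen, 174 were DEGs, 159 of them under all 18 alternatives and 6 more wherever they were tested, since the stricter minimum or the removal of organelle-like genes left these out. None changed direction. The 9 lost ones were mostly lower in PS by under 3-fold, and were lost with library totals alone or on FPKM. With library totals alone 9681 genes were higher and 2892 lower in PS. On FPKM (limma-trend) 2596, 2870 and 2647 genes were lower with a pseudocount of 1, of 0.1 and of 1 without a filter. Symbols with models called in opposite directions fell to 172 with a minimum of 5 CPM in 3 libraries. DESeq2 called 7040 higher and 4983 lower, and no filter on low counts gave 7818 and 5177. Leaving out 1 library gave 6500 to 6674 higher and 4748 to 4816 lower. Same-numbered PS and XY libraries had deviations that correlated at 0.039, 0.0098 and 0.057, and differently numbered ones at -0.048 to 0.018. Such small values cannot show whether same-numbered libraries came from the same tree. The fit with a replicate block gave 6432 higher and 4664 lower. The lists whose lean turned in some alternative were those of primary wall cellulose, xyloglucan endotransglucosylases, microtubule proteins, NAC, MYB, WRKY, ethylene and dirigent-like genes. A search of lignin gene promoters for AC elements was planned and not run, as no promoter sequence was used here. Genes at 0 in a tissue can only be given a bound, set by 3 counts over its 3 libraries (0.0868 CPM in PS and 0.134 CPM in XY).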

Other observations

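Several gene families taken by description, which may share members with the lists above, leaned to one side. They were picked after their values were seen, among descriptions with at least 10 tested genes, so no test is given beside the 26.7% higher and 19.3% lower over all genes. Pectin methylesterase 3 models were higher in PS in 12 of 12 (median log2 fold change 5.95), as were O-methyltransferase family genes in 12 of 12 (6.69), 8 of them neighbours on chromosome 13 between 13423084 and 13682034. GDSL lipases, some of which act in cutin assembly, were higher in 37 and lower in 6 of 45 (median 5.71, or 4.54 with genes that lack counts at their bound). Proteins of unknown function DUF247 were higher in 25 and lower in 1 of 30.

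On the XY side, DUF579 genes, a family that holds the xylan methyltransferases of Arabidopsis, were lower in PS in 8 and higher in 1 of 10 (median -4.68). VQ motif genes were lower in 13 and higher in 1 of 18. RING/U-box superfamily genes were lower in 80 and higher in 26 of 230. Genes described as F-box family proteins were lower in 24 and higher in 6 of 66. Other F-box descriptions did not lean so. Those with associated interaction domains were lower in 6 and higher in 5 of 16, and F-box/RNI-like genes in 5 and 5 of 25.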
